A study of Mus musculus with 12 samples.

Results

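Lrp8, which encodes the apolipoprotein E receptor 2, and 7 relatives in the low-density lipoprotein (LDL) receptor family, Vldlr, Lrp1, Lrp5, Lrp6, Lrp10, Lrp12 and Sorl1, were followed in mouse megakaryocytes given dexamethasone, a synthetic glucocorticoid. Each gene was read through the probe set that the array annotation gives to its symbol alone. All 8 had exactly 1 such probe set, out of 30142 named genes, and all 8 passed the filter on low values. Probe sets were chosen by their mean over the 12 arrays, and the genes were proposed with their dexamethasone minus vehicle differences on these arrays known, so the differences of the 8 members are given as a description without p-values. Whether a member passed the threshold is part of that description and supports nothing.

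Per the labels, stem cells from the bone marrow of male C57BL/6 mice were turned into megakaryocytes, the platelet-forming cells, by 3 days in thrombopoietin at 100 ng per ml. After a night in medium with 10% charcoal-stripped serum, day 4 cells were purified on an albumin gradient, and each culture was split between 100 nM dexamethasone and its vehicle for 6 h. All cells in both groups had therefore been through thrombopoietin, stripped serum and the gradient. The 6 cultures gave 12 arrays, and 1 to 6 are here the replicate numbers in the labels. The labels number the cultures themselves 1, 4, 5, 6, 7 and 8, in the same order, so culture 2 below is the one labelled 4 and culture 3 the one labelled 5. No source used here says whether cultures stem from different mice, so the spread below is that between cultures.

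Receptors of this family carry cysteine-rich ligand-binding repeats and beta propellers outside the cell, and most have a short tail with signals for endocytosis. Lrp8 and Vldlr bind Reelin and apolipoprotein E and pass the signal to the adaptor Dab1, and a splice form of Lrp8 is found on platelets. Lrp1 clears proteases and remnant lipoproteins, Lrp5 and Lrp6 are the co-receptors of Wnt ligands, and Sorl1 sorts cargo between Golgi and endosomes.

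The values are log2 signals as deposited, and the array medians lay between 5.57 and 5.67. Negative control probe sets had medians between 6.15 and 6.39 and 95th percentiles between 9.98 and 10.39, and levels are set against these here. Their medians lay above the array medians, and 11.9% to 14.1% of named genes exceeded the 95th percentile of their array. A level below that percentile is therefore not read as absence of the RNA. All 10 measured megakaryocyte markers, among them Itga2b, Itgb3, Pf4 and Ppbp, lay above that 95th percentile on all 12 arrays. Of these 10, Tubb1, the platelet beta-tubulin gene, fell by 1.14 (2.21-fold, adjusted p = 4.71e-06) and Gp9, a subunit of the von Willebrand factor receptor, rose by 0.44 (adjusted p = 0.00143), both in 6 of 6 cultures, and 8 did not pass limma's threshold. The summed level of 10 neutrophil genes ran from 11.80 to 14.54 in vehicle and from 10.50 to 13.87 in dexamethasone (log2 of the sum), and 4 of the 10 fell and 1 rose. That of 8 mast cell and basophil genes ran from 9.51 to 9.76 and from 9.81 to 10.15, and of the 7 tested 2 rose and 1 fell. Elane of the first list and Fcer1a, Ms4a2 and Tpsb2 of the second lay under the median negative control on every array. The summed level of 10 monocyte and macrophage genes ran from 9.53 to 10.09 and from 9.39 to 9.99, 6 of the 10 lay under the median negative control on every array, and of the 9 tested 1 fell. None of 3 erythroid, 6 lymphocyte and 7 stromal or endothelial genes passed limma's threshold, where 1, 3 and 2 had an unadjusted p under 0.05. For comparison, 12.0% of all 24265 genes tested passed that threshold, an adjusted p under 0.05, with 7.39% higher and 4.56% lower. The part of other cells in the results below was not tested. In bulk RNA, fewer cells of a type and less RNA per cell cannot be told apart.

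Lrp8 went from a level inside the range of the negative controls to one above their 95th percentile. In vehicle the lowest array read 7.50, the median 7.60 and the highest 7.87, and in dexamethasone the lowest read 10.61, the median 11.11 and the highest 11.30. The groups lay far apart and did not overlap. No vehicle array and all 6 dexamethasone arrays exceeded the 95th percentile of the negative controls of the same array, and no array of either group lay below the negative control median. The mean was 7.63 ± 0.14 in vehicle and 11.03 ± 0.27 in dexamethasone (SD, n = 6), a difference of 3.39 (SE 0.09, 95% interval 3.18 to 3.61), or 10.5-fold on the deposited scale. Since the vehicle level lay among the negative controls, the true fold may differ from the measured one.

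The rise of Lrp8 was not the same in each culture. It was 3.42, 3.66, 3.72, 3.43, 3.09 and 3.05 in cultures 1 to 6, with an SD of 0.28. Cultures 5 and 6 had the smallest rises. Their dexamethasone levels, 10.80 and 10.61, were the lowest of the 6, and their vehicle levels of 7.71 and 7.56 lay among the others. Treatment took 98.7% of the sum of squares of the 12 arrays, culture 0.8% and the residual 0.6%.

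**Figure D1:**
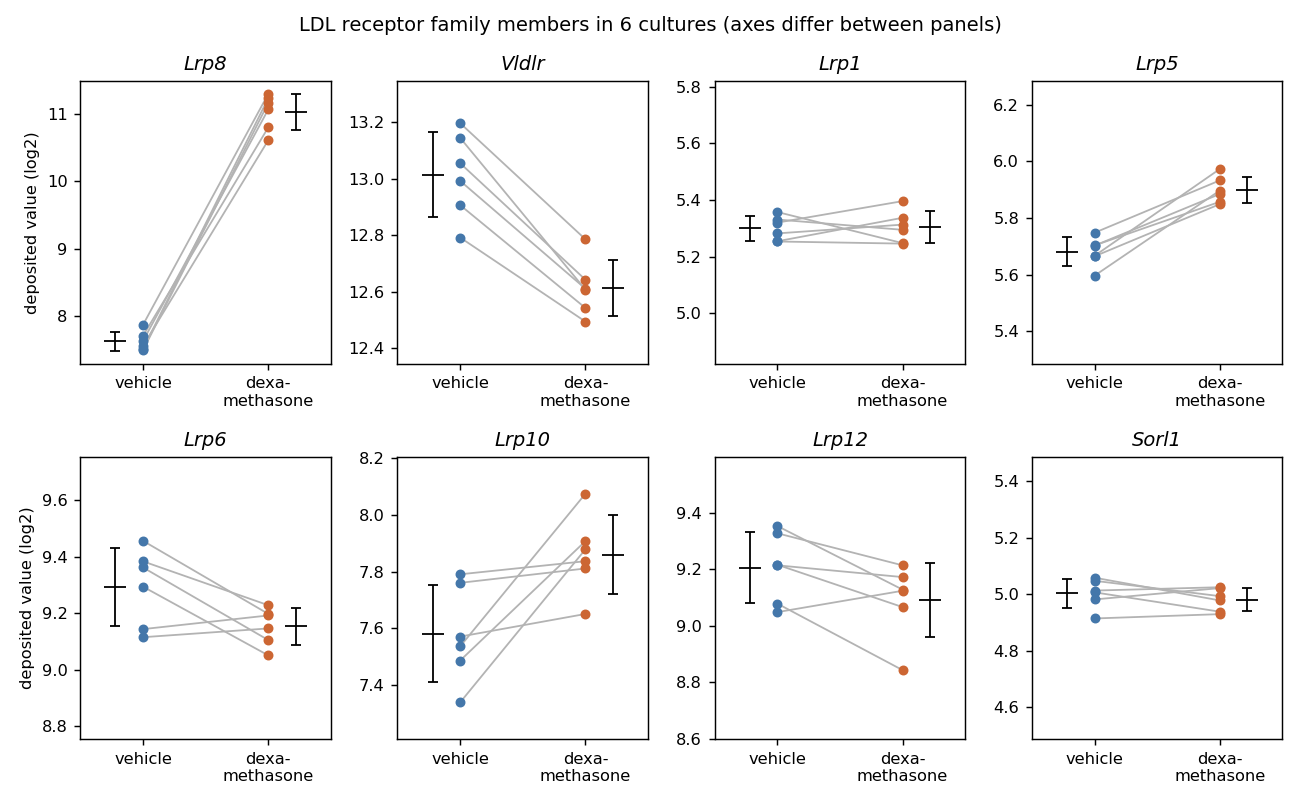
Deposited log2 values of the 8 members on each array, 1 panel per gene with its own axis. Grey lines join the vehicle (blue) and dexamethasone (orange) arrays of 1 culture, and black bars give the mean and SD of 6 arrays. Lrp8 rose in all 6 cultures, Vldlr fell in all 6, and Lrp1 and Sorl1 went both ways.

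The promoter table from RefSeq, build GRCm38.p6, holds windows of 300 bases, from 250 before to 50 after an annotated start, for 5 of the 8 members, 9 windows in all. They were searched on both strands for the glucocorticoid response element (AGAACA, any 3 bases, TGTTCT) and for its hexamer AGAACA, which reads TGTTCT on the other strand and is part of the longer motif. The windows of Lrp8 and Vldlr are shown because these members changed most and in opposite directions. Letters run 5′ to 3′ on the strand of the gene, which is the plus strand for both, and capitals mark the hexamer. The windows are chr4:107802635-107802934, the first start of Lrp8, chr4:107822911-107823210, its second start, and chr19:27216234-27216533, the first start of Vldlr.
Lrp8 first start: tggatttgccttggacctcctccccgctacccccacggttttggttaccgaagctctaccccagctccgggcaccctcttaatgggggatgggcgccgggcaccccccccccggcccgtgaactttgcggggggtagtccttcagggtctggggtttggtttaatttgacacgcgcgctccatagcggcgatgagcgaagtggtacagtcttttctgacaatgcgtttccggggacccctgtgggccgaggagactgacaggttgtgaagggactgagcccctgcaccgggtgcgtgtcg
Lrp8 second start: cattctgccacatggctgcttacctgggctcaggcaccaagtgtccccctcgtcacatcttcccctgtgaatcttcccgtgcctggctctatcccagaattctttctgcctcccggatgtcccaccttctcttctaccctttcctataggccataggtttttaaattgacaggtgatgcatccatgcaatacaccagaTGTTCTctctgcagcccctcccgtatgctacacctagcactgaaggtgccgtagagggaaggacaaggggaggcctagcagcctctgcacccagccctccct
Vldlr first start: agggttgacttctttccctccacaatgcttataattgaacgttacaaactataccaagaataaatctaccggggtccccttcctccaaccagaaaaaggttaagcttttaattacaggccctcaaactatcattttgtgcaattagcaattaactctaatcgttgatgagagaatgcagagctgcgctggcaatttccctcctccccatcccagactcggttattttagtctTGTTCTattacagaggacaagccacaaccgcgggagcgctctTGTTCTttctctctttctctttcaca

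The first Lrp8 window holds no hexamer, 62.7% G and C and 21 CG dinucleotides, against medians of 52.7% and 7 over all 32851 windows. The second holds 1 hexamer, at position 199 of the window, and the third Lrp8 window holds none. The Vldlr window shown holds 2, at positions 233 and 275, and the other Vldlr window holds none. The full element was in none of the 9 windows of the members and in 0.00913% of all windows, and the hexamer was in 3 of the 9, the third being a Sorl1 window, and in 19.0% of all. Whether the hexamer bears on the levels of Lrp8, Vldlr or Sorl1 was not tested, and which of these starts the cells use was not measured. No match says only that these letters are absent from 300 bases.

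Vldlr, the very low density lipoprotein receptor and the other Reelin receptor, was the only member above the 95th percentile of the negative controls on all 12 arrays, and it fell. Vehicle arrays ran from 12.79 through a median of 13.02 to 13.20, and dexamethasone arrays from 12.50 through 12.61 to 12.79. The groups did not overlap, though the lowest vehicle array and the highest dexamethasone array nearly met. Vldlr fell by 0.40 (SE 0.05, 95% interval -0.50 to -0.30), a 1.32-fold change, in 6 of 6 cultures. Within cultures it fell by 0.30 to 0.54, and these differences had an SD of 0.08, smaller than the SD of 0.15 between vehicle arrays. Culture took 22.9% of its sum of squares and treatment 74.7%, and the culture means ran from 12.64 to 12.99. Culture 5 was the highest and cultures 2 and 3 the lowest in both groups.

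The Wnt co-receptors Lrp5 and Lrp6 lay at different places relative to the negative controls. Lrp5 was under the median negative control on all 12 arrays, with 5.60, 5.68 and 5.75 as lowest, median and highest in vehicle and 5.85, 5.89 and 5.97 in dexamethasone. The groups did not overlap. Lrp5 rose by 0.22 (SE 0.04), in 6 of 6 cultures, by 0.15 to 0.31. Its call ended when all probe sets were fitted together, at the same difference, and without cultures 2 and 3, at 0.24. Lrp6 lay between the negative control median and their 95th percentile, at 9.11, 9.33 and 9.46 in vehicle and 9.05, 9.17 and 9.23 in dexamethasone. The groups overlapped. The Lrp6 difference was -0.14 (SE 0.06, 95% interval -0.27 to -0.01) and did not pass the threshold. It was lower in 4 of 6 cultures, by 0.16 to 0.26 in cultures 1, 4, 5 and 6, and 0.05 and 0.03 higher in cultures 2 and 3. After quantile normalization its difference was -0.20 and past the threshold.

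Lrp10, which moves between the Golgi and endosomes, read 7.34, 7.55 and 7.79 as lowest, median and highest in vehicle and 7.65, 7.86 and 8.08 in dexamethasone. The groups overlapped although Lrp10 was higher under dexamethasone in 6 of 6 cultures. The difference of 0.28 (SE 0.09, 95% interval 0.09 to 0.47) did not pass the threshold. It was 0.54, 0.42 and 0.54 in cultures 2, 3 and 4 and 0.05, 0.05 and 0.08 in cultures 1, 5 and 6. The 3 cultures with the larger differences had the 3 lowest vehicle readings and also the 3 highest dexamethasone readings. The difference passed the threshold without the culture block, with culture as a random effect and under the 2 stricter filters.

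Vehicle arrays 2 and 3 had the lowest upper quartiles of the 12, both 7.32 against 7.37 to 7.48 on the others. They also had the highest array medians of the 12, 5.673 and 5.666. Their vehicle readings were the lowest for Lrp8, Vldlr, Lrp6 and Lrp10 and the highest for Lrp1. For Lrp5, Lrp12 and Sorl1 these arrays were not together at either end of the vehicle readings. Without both cultures the differences were 3.25 for Lrp8, -0.44 for Vldlr, -0.23 for Lrp6 and 0.18 for Lrp10. The part of the array quartiles in the culture pattern of Lrp6 and Lrp10 was not tested.

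Lrp12, a membrane receptor of the family, was 9.05, 9.22 and 9.35 as lowest, median and highest in vehicle and 8.84, 9.13 and 9.21 in dexamethasone. The groups overlapped, and the difference of -0.115 (SE 0.05, 95% interval -0.24 to 0.01), lower in 5 of 6 cultures, did not pass. It passed after quantile normalization, at -0.17. Culture took 63.4% of its sum of squares and treatment 19.5%, and culture 6 was the lowest under dexamethasone.

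Lrp1 and Sorl1 lay under the median negative control on all 12 arrays, so these arrays hold little information on them. Lrp1 ran from 5.25 to 5.36 in vehicle and from 5.25 to 5.40 in dexamethasone, with a difference of 0.01 (95% interval -0.10 to 0.11) that was negative after centring on array medians. Sorl1 ran from 4.91 to 5.06 and from 4.93 to 5.02, with a difference of -0.02 (95% interval -0.12 to 0.07) that was positive after quantile normalization. Both went up in 3 cultures and down in 3. Treatment took 0.4% of the sum of squares of Lrp1 and 6.6% of that of Sorl1.

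**Figure D2:**
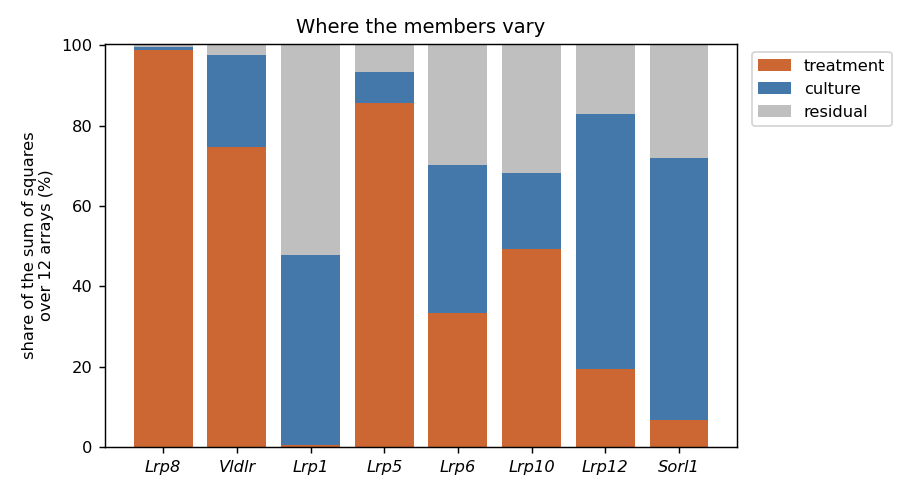
Share of each member's sum of squares over 12 arrays that lies between treatments, between cultures and in the residual, in percent, as stacked bars from 0. Treatment holds 98.7% for Lrp8, 85.6% for Lrp5 and 74.7% for Vldlr, and 0.4% for Lrp1.

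In all, 2 of the 8 members rose, 1 fell and 5 did not pass the threshold, an adjusted p under 0.05 in limma's test over 24265 genes. Of all genes tested 12.0% passed it, 7.39% higher and 4.56% lower. The groups of 6 arrays did not overlap for 3 of the 8 members and for 6.73% of all genes. The members were proposed with this contrast known, so nothing is read from these shares. The median difference of the 8 was -0.01, as was that of all genes tested. After quantile normalization 2 members rose and 3 fell.

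Most other receptors of the family lay among or below the negative controls. Of 9 further LDL receptor family genes with a value, 8 lay under the median negative control on every array, and the ninth, Lrp3, did so on 2 vehicle and 4 dexamethasone arrays. Of the 7 tested, Ldlrad3 rose by 0.26 (SE 0.05, adjusted p = 0.012), in 6 of 6 cultures. Ldlrad4, an inhibitor of TGF-beta signalling, fell by 0.24 (SE 0.06, adjusted p = 0.0471), in 6 of 6. Its call ended on leaving out any of cultures 2, 3, 4, 5 or 6, with differences of -0.26 to -0.19 and adjusted p of 0.0656 to 0.122. The Ldlrad4 call also ended after quantile normalization (adjusted p = 0.0501), with no filter (0.0611) and with trend and robust (0.0508). Lrp2, Lrp3, Lrp11, Ldlrad1 and Ldlrad2 had differences of -0.01, -0.09, 0.07, 0.02 and -0.10 and did not pass. Of the VPS10 receptors, which share a domain with Sorl1, only Sort1 was above background, on all 12 arrays. Sort1, or sortilin, read 11.73, 11.87 and 12.03 as lowest, median and highest in vehicle and 11.83, 12.14 and 12.37 in dexamethasone. It rose by 0.25 (SE 0.05, adjusted p = 0.0133), in 6 of 6 cultures, with overlapping groups, and the adjusted p was 0.093 without the block. Sorcs2 and Sorcs3 had differences of -0.04 and -0.08 and did not pass.

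**Figure D3:**
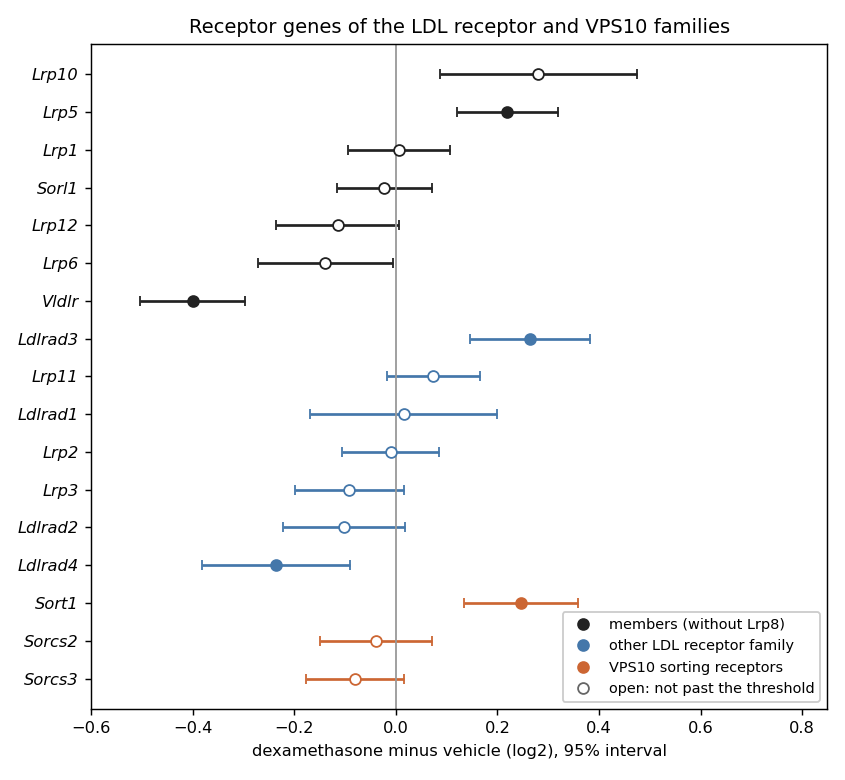
Difference between dexamethasone and vehicle (log2) with its 95% interval for each tested receptor gene of the LDL receptor and VPS10 families, without Lrp8, whose 3.39 lies off the axis. Filled points passed the threshold. Vldlr at -0.40 lies farthest to the left, and Lrp10, Ldlrad3, Sort1 and Lrp5 lie farthest to the right, from 0.28 to 0.22.

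Genes that act with these receptors were taken from lists of ligands, adaptors, signalling and sorting partners. Over these lists and the receptors just described, 18 of 115 genes tested passed the threshold, 15.7% against 12.0% of all genes, with 11 higher and 7 lower, and the median difference was -0.01. The split between directions moved with scaling, with 6 higher and 13 lower after quantile normalization and 8 and 8 after centring on array medians. The lists were drawn up with earlier results of these data known, so nothing is read from the share of 15.7%. Genes named from them below were mostly picked for passing the threshold, so their adjusted p-values are a description.

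Mylip, the ubiquitin ligase that sends Lrp8 and Vldlr to degradation, fell most of these genes. Its arrays read 9.80, 9.93 and 10.15 as lowest, median and highest in vehicle and 9.12, 9.17 and 9.33 in dexamethasone. The groups did not overlap. Mylip fell by 0.74 (SE 0.06, adjusted p = 8.26e-05), a 1.67-fold change, in 6 of 6 cultures, by 0.50 to 0.91. Gulp1, an adaptor that binds the tail of Lrp1 in the uptake of dying cells, ran from 8.22 to 8.68 in vehicle and from 7.79 to 8.07 in dexamethasone. It fell by 0.54 (SE 0.06, adjusted p = 0.000706), again in 6 of 6 cultures without overlap. Both calls held in all 18 other settings, which for Mylip gave adjusted p of 5.76e-07 to 0.00392.

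Among 17 tested genes for folding, adaptors, shedding and turnover, 3 rose, 3 fell and 11 did not pass. Psen2, a catalytic subunit of the gamma-secretase that cuts receptor stubs, rose by 0.25 (adjusted p = 0.0173), with adjusted p of 0.0529 to 0.0547 on leaving out culture 2 or 3, where the difference was 0.22 to 0.23. Lrpap1, the chaperone that keeps ligands off new receptors, rose by 0.22 (adjusted p = 0.0317), and this call ended on leaving out any of cultures 1, 2, 4, 5 or 6, with differences of 0.19 to 0.24 and adjusted p of 0.0528 to 0.0914. The shedding proteases Adam10 and Adam17, named after their values were seen, rose by 0.22 and fell by 0.16 (adjusted p = 0.0328 and 0.0448). The Adam10 call ended without any of cultures 1 to 5 (differences 0.18 to 0.23) and that of Adam17 without any of cultures 1, 3, 4, 5 or 6 (-0.17 to -0.15). The adjusted p of Adam17 was also 0.103 without the block and 0.0531 with culture as a random effect. The Lrpap1 and Adam10 calls also ended after quantile normalization, and that of Adam17 with no filter. The adaptors Dab1 and Dab2 lay under the median negative control on every array.

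Of 15 tested ligands, 2 rose, 1 fell and 12 did not pass, and without the block, or with culture as a random effect, 1 passed. F8, coagulation factor VIII, a ligand of Lrp1, rose by 0.38 (SE 0.06, adjusted p = 0.00402), from 7.03 to 7.24 in vehicle to 7.35 to 7.74 in dexamethasone, without overlap. Thbs1, thrombospondin 1, a platelet granule protein that binds Lrp8, Vldlr and Lrp1, fell by 0.26 (SE 0.05, adjusted p = 0.0114) in 6 of 6 cultures, from 17.21 to 17.60 in vehicle to 16.91 to 17.50 in dexamethasone. Its adjusted p was 0.128 without the block and 0.065 with the random effect. The third was Apoe, named after its values were seen, which rose by 0.21 (adjusted p = 0.0389), higher in 5 of 6 cultures, and its call ended without any of cultures 1, 3, 4, 5 or 6 (differences 0.19 to 0.22). The adjusted p of Apoe was 0.366 without the block, 0.254 with the random effect, 0.0982 after quantile normalization and 0.0563 after centring. Reln, which encodes Reelin, lay under the median negative control on every array.

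No gene of the Reelin signalling list passed limma's threshold, 0 of 15 tested with 6 at an unadjusted p under 0.05, and their differences ran from -0.18 to 0.27. This count depended on the setting. It was 4 with culture as a random effect (1 higher, 3 lower), 4 after quantile normalization (all lower), 3 under each stricter filter (1 higher, 2 lower) and 1 with trend and robust (lower). None of 27 tested Wnt partners passed either, with 2 at an unadjusted p under 0.05 and differences from -0.15 to 0.08. Of the 35 Wnt partners with a value, 25 lay under the median negative control on every array, among them 8 Frizzled receptor genes. Lrp5 and Lrp6 were therefore measured beside partners mostly below that median.

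Of 13 tested retromer and GGA sorting genes, 2 rose, 1 fell and 10 did not pass. Snx1, a sorting nexin of the retromer coat, read 10.02, 10.11 and 10.23 as lowest, median and highest in vehicle and 10.49, 10.74 and 10.88 in dexamethasone. It rose by 0.60 (SE 0.07, adjusted p = 0.000566), a 1.52-fold change, in 6 of 6 cultures without overlap. Gga2, an adaptor for sortilin-type receptors, fell by 0.24 (adjusted p = 0.00947), and the retromer subunit Vps26b rose by 0.19 (adjusted p = 0.0416). The Vps26b call ended on leaving out any 1 of the 6 cultures, with differences of 0.16 to 0.22 and adjusted p of 0.0516 to 0.11, and its adjusted p was 0.0547 without the block and 0.133 after quantile normalization.

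Of 18 tested genes of sterol control and other lipoprotein receptors, 2 rose, 1 fell and 15 did not pass, and 5 passed with culture as a random effect. Olr1, the lectin-like receptor for oxidised LDL, fell by 0.37 (SE 0.06, adjusted p = 0.00419), in 6 of 6 cultures. The sterol exporter gene Abcg1 rose by 0.29 (SE 0.05, adjusted p = 0.00939), also in 6 of 6. The lysosomal cholesterol exporter Npc1 rose by 0.16 (adjusted p = 0.0456), and its call ended on leaving out any 1 of the 6 cultures, with differences of 0.14 to 0.17, and its adjusted p was 0.0885 without the block. The Npc1 call also ended after quantile normalization, after centring on array medians and with no filter.

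**Figure D4:**
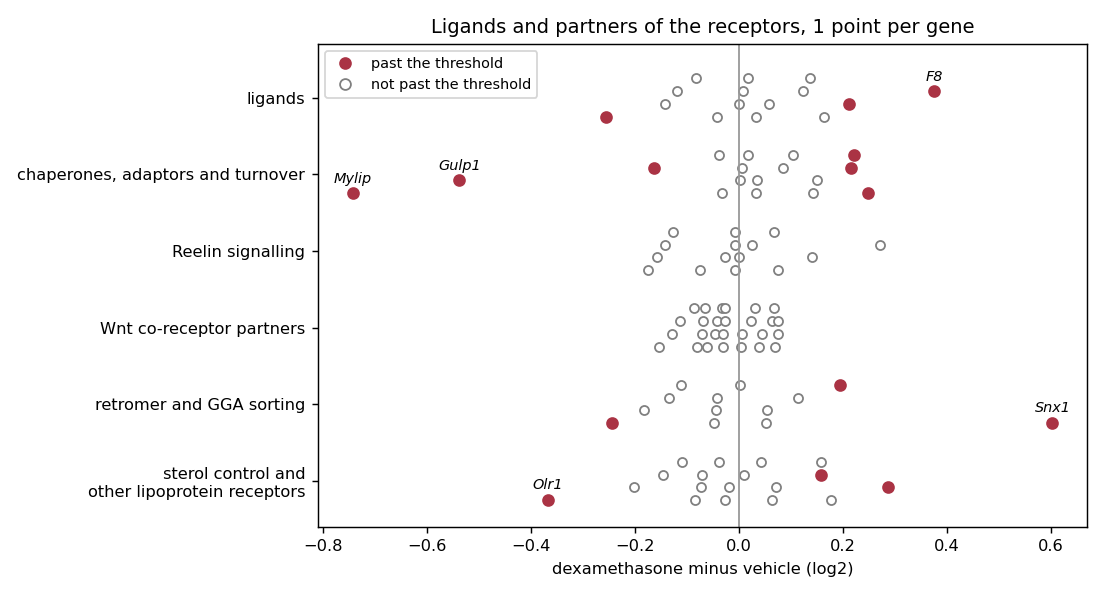
Difference between dexamethasone and vehicle (log2) of each tested gene in 6 lists of ligands and partners, 1 point per gene, spread vertically within a list for sight only. Filled points passed the threshold. Mylip at -0.74 and Snx1 at 0.60 lie farthest out, and the Wnt and Reelin lists have no filled point, though 1 to 4 Reelin genes passed in 5 of the 18 other settings.

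Genes whose 12 readings were most like those of Lrp8 were sought among 3836 tested genes with a mean above the negative controls' 95th percentile. Highest were Dpy19l4, a C-mannosyltransferase relative, Havcr2, the receptor TIM-3, Efcab14, the glutathione reductase gene Gsr, and Irak3, a brake on Toll-like receptor signalling. Their Pearson r with Lrp8 over the 12 arrays was 0.998, 0.998, 0.997, 0.996 and 0.996. The arrays share the treatment, so any gene with a clear rise has a high r. Their differences were 2.18, 2.26, 0.92, 1.20 and 1.85, each smaller than that of Lrp8. Of all genes tested, 4 rose more than Lrp8. The culture means of Lrp8, from 9.09 to 9.58, lay below the 95th percentile of the negative controls of every array. Lrp8 itself would therefore not pass the cut used in this search.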

How the data were processed

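The authors deposited 1 table of log2 values for 72688 probe sets on 12 arrays. The scale was taken from the range of values, while no source used here gives the background correction, normalization or array build. Per the labels' protocols, 50 ng of RNA was amplified and labelled with biotin, so arrays have 1 colour. Precision is limited by the number of arrays.

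A probe set was named where the annotation gives it 1 distinct symbol (30604 probe sets, and 2146 had several). Gene numbers of 22815 matched RefSeq, GRCm38.p6, which updated 827 symbols. A gene with several took the one of highest mean over the 12 arrays. Genes above the 25th percentile of their array on at least 6 arrays, 24265, were tested with limma 3.58.1 in R 4.3.3 (lmFit, eBayes, culture as a block, two-sided, Benjamini-Hochberg over all genes), and adjusted p under 0.05 was called. Intervals are at 95% from the same fit. On simulated data with known changes (log2), the fit called 13 of 50 genes changed by 0.25 and 33 of 50 changed by 0.5. It called 50 of 50 changed by 1.0, 49 of 50 changed by 2.0 and 3 of 24065 unchanged genes. Small changes can therefore be missed.

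The labels say that cultures were split, which pairs equal numbers. Deviations from group means correlated at 0.049 to 0.247 within pairs, over 0.1 in 4 of 6, and 4 of 6 vehicle arrays matched their own number best. Vehicle arrays 2 and 3 matched dexamethasone array 6 best, and correlated with their own number at 0.231 and 0.049.

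The members and gene lists were chosen with earlier results of these data known. Named were the members, all tested receptors of the family, up to 4 called genes per list that moved alike in 6 cultures, largest first, and the 5 genes most like Lrp8. Alternatives were no block, a random block, 2 other scalings, 3 other filters, a floor, trend and robust, averaged probe sets, a fit of all probe sets, and each culture left out. Cultures 2 and 3 were also left out together, chosen after seeing the data. Figures were drawn with matplotlib 3.10.9. Protein sequences were not used here.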

Additional observations from a re-analysis of the deposited data

Results flagged for a closer look

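Of 70 groups of 6 arrays, 2 for each gene named by rule, 3 had an array far from the other 5, where chance gives about 1 in 20. Lrp11 in dexamethasone read 5.60 in culture 3, against 5.43 to 5.50 in the other cultures. Ldlrad1 in dexamethasone read 6.11 in culture 6, against 5.78 to 5.86 in the others. Gga2 in dexamethasone read 7.58 in culture 6, against 7.74 to 7.83 in the others. No array of the 8 members stood apart by this measure.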

How the results depend on the processing

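Mylip, Gulp1, Snx1, Olr1 and the 5 genes of highest r with Lrp8 kept their direction and call in all 18 other settings. They were picked for their calls or their r on these same arrays, so this is not independent support. Without the replicate block, 2452 of all genes and 12 of the 115 listed genes were called, against 2900 and 18, and Lrp10 passed at 0.28. Lrp10 also passed at 0.28 with culture as a random effect and under both stricter filters. Quantile normalization called 5 members, with Lrp6 at -0.20 and Lrp12 at -0.17. It called 3155 of all genes, 44.9% of them higher, against 61.9% as deposited and 54.0% after centring. Fitting all probe sets called 1215 genes and 5 listed genes, and the Lrp5 call ended at 0.22. Leaving out 1 culture called 1878 (without culture 3) to 2331 genes and 11 (without culture 3 or 5) to 13 listed genes. Leaving out cultures 2 and 3 together called 1268 and 6, and Lrp5 ended at 0.24. The fit of all probe sets uses more tests, and leaving out cultures uses fewer arrays. The part of either in the lost calls was not tested.

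Differences near 0 changed sign and have no settled direction. Lrp1 was -0.0099 after centring and -0.0094 to 0.0293 with 1 culture left out. Quantile normalization gave 0.0125 for Sorl1 and 0.0256 for Lrp2. With 1 culture left out Lrp2 was -0.0273 to 0.0 and Ldlrad1 -0.0431 to 0.0877, and Ldlrad1 was -0.0006 after centring. Without cultures 2 and 3, Lrp2 was 0.0106 and Sorcs2 0.021. The cause was not tested. Sort1 (adjusted p 0.0985), F8 (0.0609), Gga2 (0.0599) and Abcg1 (0.0566) lost their limma calls without cultures 2 and 3, and Sort1 (0.0702), Gga2 (0.057), Abcg1 (0.0538), Ldlrad3 (0.0642) and Thbs1 (0.0628) in the fit of all probe sets. The Lrpap1, Psen2, Adam10, Adam17, Ldlrad4, Apoe, Npc1 and Vps26b calls ended in both of these settings. Levels under the negative controls limit what can be said of Lrp1, Lrp5, Sorl1 and most relatives.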

Other observations

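A probe set whose 2 symbols both name 1 antisense RNA of Lrp8 was left out of the gene table and was picked here after its values were seen. It was 5.75 ± 0.21 in vehicle and 6.13 ± 0.13 in dexamethasone (log2, SD, n = 6), a difference of 0.38. It was higher in 6 of 6 cultures, with overlapping arrays of 5.58 to 6.12 and 6.00 to 6.32. It lay under the median negative control on all 6 vehicle arrays and on 5 of 6 dexamethasone arrays.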
